A study of Mus musculus with 13 samples.

Results

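Ribosome footprints were counted in WT mouse embryonic fibroblasts (MEFs) after 2 h of thapsigargin (Tg) and compared with untreated WT MEFs, over 10432 of the 22406 gene symbols in the tables. Tg blocks the calcium pump of the endoplasmic reticulum (ER), empties the ER of calcium and so disturbs protein folding there. The 10432 genes had, on average, 2 or more TPM (the length-scaled share of a library that RSEM gives for each gene) over the 10 MEF libraries. They were taken whatever their change, and TPM values under 4 were set to 4 before a change was computed. The WT groups were MEFs with an intact PERK gene, either untreated or given 1 μM Tg for 1, 2, 5 or 8 h. The PERK -/- MEFs lack the kinase PERK and were used here untreated and after 2 h of the same dose. NIH3T3 cells, an established mouse fibroblast line with intact PERK, were used untreated and after 2 h of a lower dose. Each condition was 1 library of 1 culture, the labels do not say from how many embryos or clones the MEFs came, and no cycloheximide was added at harvest.

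Separate sensors watch over folding in the ER lumen. PERK phosphorylates the initiation factor eIF2alpha, which lowers initiation on most mRNAs and raises it on a few with upstream open reading frames, such as Atf4. ATF4 and its partner CHOP (Ddit3) then drive genes of amino acid uptake and synthesis, tRNA charging and recovery of translation. The other arms, IRE1 with XBP1 and the cleaved factor ATF6, drive chaperones and the machinery of ER-associated degradation. A footprint is the piece of mRNA covered by a translating ribosome, so footprint levels follow both the mRNA and its translation, and these cannot be told apart here.

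The 2 h library was the smallest of the MEF series, with 2525029 expected counts against 11949174 in the WT control and 3609292 at 1 h. The median gene analysed had 70 counts at 2 h and 315 in the control. A count of 3 corresponded to 1.19 CPM (counts scaled to the library total) at 2 h and 0.251 CPM in the control. With 1 library per condition there is no replicate error and no test between conditions. A change is called a rise or a fall here when TPM differed at least 2-fold. Log2 changes are of floored TPM unless counts are named. Square brackets after one hold the exact 95% interval for the log2 ratio of the expected counts, each scaled by its library's sum, and reflect counting error alone. Of the 15 fibroblast markers, 14 were analysed, with Vim at 2977 TPM in the control and 3315 at 2 h and Col1a1 at 1400 and 941 TPM, but Lum was at 0 and Dcn and Pdgfra stayed under 2 TPM. All 6 muscle markers were at 0 in both libraries, as were 6 of 9 leukocyte and 4 of 6 endothelial markers, and the summed neural markers went from 69.5 to 92.6 TPM, mostly Tubb3. Of 8 epithelial markers 1 was at 0 in both libraries, and their sum went from 20.2 to 25.1 TPM, with Krt18 at 13.4 and 16.0 TPM and Cldn4 at 2.84 and 7.37. The part of other cells in the results was not tested. Eif2ak3, the PERK gene itself, had 254 counts in the WT control and 48 at 2 h, and 74 and 113 counts in the PERK -/- libraries. Those footprints were counted over the whole gene, so they do not check the deletion.

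One sequence word recurred in the promoters of genes with large rises. It was TGATGNAA, read on either strand, and 9 genes that rose at least 4-fold at 2 h held it within the RefSeq promoter window of 300 bases, from 250 before to 50 after the start. This word is the core of the CARE element (C/EBP-ATF response element) that ATF4 dimers are known to bind. They were 18.8% of the 48 such genes with a promoter in the table, against 2.61% of all 8387 genes analysed with one, 6.51% of the genes up at least 2-fold and 2.15% of the genes down. Chac1 encodes a glutathione-degrading enzyme and Trib3 a pseudokinase that restrains ATF4 and CHOP, and both windows are given whole. Coordinates are GRCm38 and each sequence reads 5′ to 3′ on the strand of the gene, with the match in capitals, as found on that strand or as the reverse complement.
Chac1, chr2:119350992-119351291, plus strand: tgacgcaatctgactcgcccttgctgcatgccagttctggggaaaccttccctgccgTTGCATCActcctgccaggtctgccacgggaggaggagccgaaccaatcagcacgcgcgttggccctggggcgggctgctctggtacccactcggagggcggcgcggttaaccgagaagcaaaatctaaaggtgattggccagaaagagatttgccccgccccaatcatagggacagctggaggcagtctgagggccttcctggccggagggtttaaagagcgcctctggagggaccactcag
Trib3, chr2:152344011-152344310, minus strand: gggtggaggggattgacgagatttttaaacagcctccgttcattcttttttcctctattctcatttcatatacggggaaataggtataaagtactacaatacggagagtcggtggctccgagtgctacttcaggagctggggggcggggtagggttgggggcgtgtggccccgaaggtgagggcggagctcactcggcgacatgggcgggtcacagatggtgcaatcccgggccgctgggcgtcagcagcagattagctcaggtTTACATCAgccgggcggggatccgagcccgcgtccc

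The match lay 193 bases before the start of Chac1 and 15 bases after that of Trib3. For the other genes only the match and its flanks are shown, to let the words be compared. Arid5a, Nupr1 and Smim10l1 are shown because they hold the word, and Smim10l1 rests on 19 counts in the control and 18 at 2 h. Herpud1 encodes a membrane organiser of ER-associated degradation, Atf3 and Nupr1 transcription regulators of the stress response, Slc7a11 the cystine transporter, Gadd45g a growth arrest protein and Arid5a an RNA-binding protein of the inflammatory response.
Herpud1, chr8:94386291-94386350, plus strand: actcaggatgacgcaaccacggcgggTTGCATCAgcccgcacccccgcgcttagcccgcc
Atf3, chr1:191183410-191183469, minus strand: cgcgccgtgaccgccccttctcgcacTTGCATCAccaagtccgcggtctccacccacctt
Nupr1, chr7:126625547-126625606, minus strand: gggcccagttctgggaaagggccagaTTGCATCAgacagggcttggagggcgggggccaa
Slc7a11, chr3:50443627-50443705, minus strand: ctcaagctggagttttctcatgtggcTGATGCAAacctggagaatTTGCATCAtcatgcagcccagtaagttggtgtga
Gadd45g, chr13:51846548-51846607, plus strand: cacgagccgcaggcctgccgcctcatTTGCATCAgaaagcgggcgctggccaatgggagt
Arid5a, chr1:36307543-36307602, plus strand: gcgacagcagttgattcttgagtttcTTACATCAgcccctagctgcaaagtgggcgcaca
Smim10l1, chr6:133105122-133105181, plus strand: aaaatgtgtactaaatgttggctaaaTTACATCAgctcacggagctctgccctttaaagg

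Slc7a11 held the word on both strands. In the windows of Atf3, Chac1, Gadd45g, Herpud1, Nupr1 and Slc7a11 the free base of the word gave TTGCATCA, and in those of Arid5a, Smim10l1 and Trib3 TTACATCA. A match is a description of the window and not evidence of binding. The palindrome TGACGTCA, the cyclic AMP response element, was in 3.79% of the genes analysed, 4.77% of those up and 2.15% of those down. Among the 48 genes up at least 4-fold it was in 3 (6.25%). The ER stress response element, CCAAT and CCACG separated by 9 bases, was in 0.191% of the genes analysed. Among the genes up at least 2-fold it was in 0.434%, namely in Hspa5, the ER chaperone BiP, and in Syvn1, a ubiquitin ligase of ER-associated degradation. It was in 1 of the 326 genes down (0.307%) and in 0 of the 48 genes up at least 4-fold. In no promoter did matches of different words overlap.
Hspa5, chr2:34771840-34772139, plus strand: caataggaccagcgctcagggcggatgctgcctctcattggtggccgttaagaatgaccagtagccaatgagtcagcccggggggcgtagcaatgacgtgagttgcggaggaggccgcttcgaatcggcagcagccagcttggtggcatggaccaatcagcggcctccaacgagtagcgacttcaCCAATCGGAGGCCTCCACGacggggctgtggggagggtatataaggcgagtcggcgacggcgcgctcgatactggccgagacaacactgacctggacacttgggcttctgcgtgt
Syvn1, chr19:6046506-6046576, plus strand: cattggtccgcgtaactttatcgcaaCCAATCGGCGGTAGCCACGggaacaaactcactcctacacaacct

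In all, 590 genes rose at least 2-fold at 2 h, which is 5.66% of those analysed, and 418 fell, which is 4.01%. The counting interval lay above 0 for 581 of the genes that rose and below 0 for 396 of those that fell. It lay wholly beyond 2-fold for 235 and 92. At least 4-fold, 63 genes were up and 23 down, and the median gene had a log2 change of 0.00. The floor of 4 TPM limits how far a gene with a low control value can fall, but not how far one can rise. The 4-fold counts are therefore not an even comparison of rises and falls. The genes that fell had a median of 37 counts at 2 h, against 65 for those that rose. In the control the order was reversed, with 429.5 against 123 counts.

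**Figure D1:**
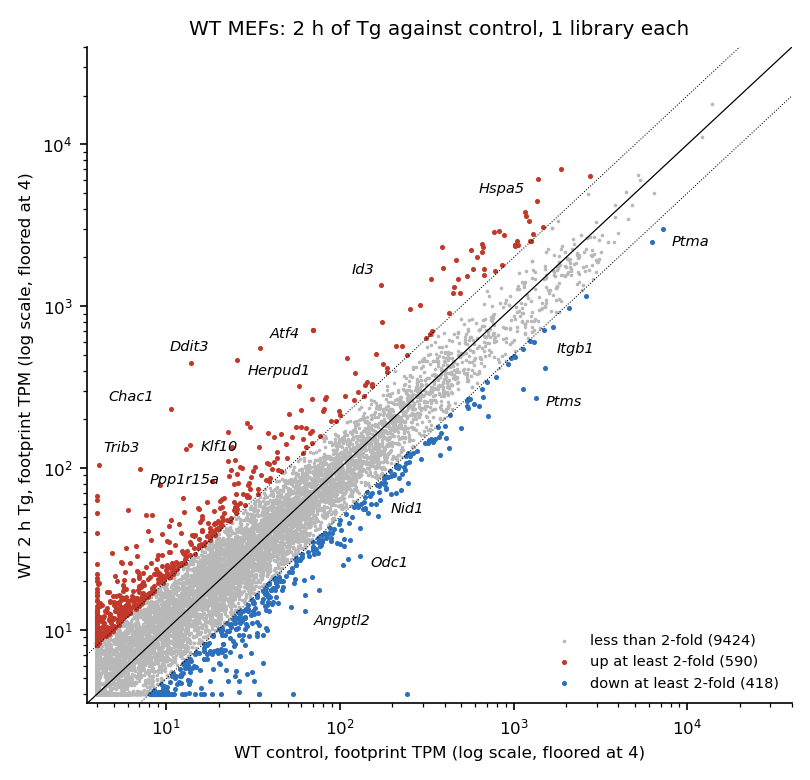
Footprint TPM of the 10432 genes analysed in the WT control library (x) and the WT library at 2 h of Tg (y), both on log scales and floored at 4. The solid line marks equal values and the dotted lines 2-fold, and 590 genes lie above and 418 below them, with Ddit3, Trib3 and Chac1 farthest above.

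The largest rise was that of Ddit3, which encodes CHOP. Its TPM was 13.8, 272, 442, 564 and 580 in the WT libraries of 0, 1, 2, 5 and 8 h, and it rose 32.1-fold at 2 h (log2 5.00 [4.65, 5.34]). In PERK -/- MEFs it had 6.91 TPM untreated and 14.2 at 2 h. The change at 2 h was therefore larger in WT by 3.82 on the log2 scale of counts, with a counting interval of 3.07 to 4.56. Atf4 had 34.5, 487, 551, 569 and 576 TPM over the same 5 WT libraries, so most of its rise was present at 1 h and its 2 h value was 16.0 times the control (interval of the log2 count ratio 3.85 to 4.16). Without PERK Atf4 went from 41.4 to 34.2 TPM. Ppp1r15a, the inducible subunit of the eIF2alpha phosphatase, had 98.4 TPM at 1 h and 98.1 at 2 h against 7.01 in the control, and the 2 h to 1 h ratio had a log2 counting interval of −0.18 to 0.15.

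Other genes were at least 2-fold higher at 2 h than at 1 h. Trib3 had 4.12, 10.1, 105 and 181 TPM in the libraries of 0, 1, 2 and 5 h, a rise of 25.5-fold at 2 h (log2 4.67 [4.25, 5.13]), with a change from 1 to 2 h of 3.37 [2.88, 3.89]. Chac1 had 10.6, 72.2, 231 and 184 TPM at those times, and its 2 h value was the highest of the 5 WT libraries. Acot2, a mitochondrial thioesterase, had 3.21, 6.42 and 52.5 TPM at 0, 1 and 2 h (2 h over control, log2 of counts 4.04 [3.59, 4.51]). Gadd45a, a growth arrest protein, had 13.1, 24.2 and 130 TPM, and Sesn2, an inhibitor of mTORC1 signalling, 5.99, 15.4 and 54.6 TPM. Trib3, Chac1, Acot2, Gadd45a and Sesn2 had lower TPM at 2 h than untreated in PERK -/- MEFs, by log2 changes from −0.40 for Acot2 to −1.93 for Gadd45a.

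**Figure D2:**
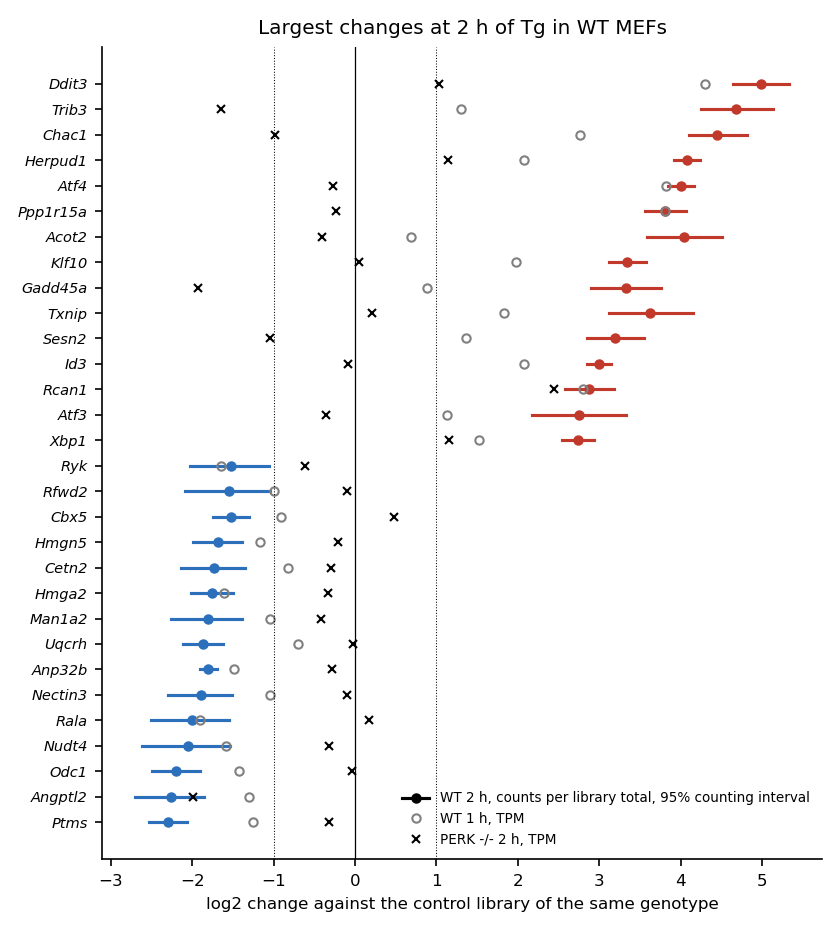
The 15 largest rises (red) and 15 largest falls (blue) at 2 h of Tg among genes with at least 30 counts in both WT libraries. Filled points and bars give the log2 change in counts per library total with its 95% counting interval, open circles the log2 TPM change at 1 h and crosses that of PERK -/- MEFs at 2 h. Rcan1 is the rise whose cross lies nearest its filled point, and Angptl2 the fall.

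As a list, the 9 genes known for control by upstream reading frames had 7 rises, no fall and a median log2 TPM change of 2.39, equal to their median at 1 h. Ibtk, a BTK inhibitor, had 3.90, 11.7 and 20.9 TPM in the control and at 1 and 2 h. Eprs, a tRNA synthetase named after its value was seen, and Ppp1r15b did not change 2-fold, with Eprs at 0.37 [0.30, 0.45] and Ppp1r15b, which encodes the constitutive phosphatase subunit, going from 35.9 to 21.8 TPM. The 20 genes of the ATF4-CHOP response had 14 rises and no fall, with a median of 2.11 at 2 h against 0.70 at 1 h. Of all genes 5.66% rose and 4.01% fell at 2 h in WT. Of the 20, 13 were at least 2-fold above their own 1 h value, where 2.01% of all genes analysed were above and 2.02% below it. Their share of all footprints went from 0.0303% (Wilson 95% interval 0.0293 to 0.0313) to 0.195% (0.190 to 0.201). Only Ddit3 of these 20 rose at 2 h in PERK -/- MEFs, where 3 fell, while 0.623% of all genes rose and 5.78% fell there. In NIH3T3 cells 7 of the 18 members analysed rose at 2 h and none fell, with a median of 0.34 beside −0.17 for all genes.

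Of 13 enzymes of amino acid and one-carbon metabolism 8 rose and none fell, beside 5.66% and 4.01% of all genes. All 13 had counting intervals above 0, and the list median was 1.28 at 2 h and −0.05 at 1 h. Aldh1l2, a mitochondrial folate enzyme, had 4.90, 5.16, 29.7 and 63.4 TPM in the libraries of 0, 1, 2 and 5 h (2 h over control, 2.60 [2.39, 2.99]). Psph, the last enzyme of serine synthesis, had 50.6, 78.9, 216 and 373 TPM. Gpt2, an alanine transaminase, went from 10.1 to 35.1 TPM, and Pycr1, an enzyme of proline synthesis, from 5.73 to 18.1. Without PERK, where 0.623% of all genes rose, none of the 13 rose. Their median there was −0.31 beside −0.11 for all genes. In NIH3T3 cells, where 5.08% of all genes rose, none of the 13 rose at 2 h. Their median there was −0.09 beside −0.17 for all genes. Untreated levels differed between the cells, with Aldh1l2 already at 90.9 TPM in untreated NIH3T3 cells. The paper's methods list added non-essential amino acids for the MEFs only. The part of starting level, dose and medium was not tested.

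Of 14 amino acid transporters 7 rose and 1 fell, beside 5.66% and 4.01% of all genes. Their median was 0.91 (0.05 at 1 h), and 8 counting intervals lay above 0 and 4 below. Slc6a9, the glycine transporter, had 7.80, 11.6 and 40.8 TPM in the control and at 1 and 2 h, and Slc7a11 had 2.51, 3.13 and 19.98 TPM (log2 of counts 3.02 [2.42, 3.63]). Slc3a2, the shared heavy chain of several transporters, had 255, 469 and 965 TPM (1.92 [1.89, 2.02]). The one that fell, the glutamine carrier Slc1a5, changed by −1.01 [−1.22, −0.55] and is named here after its value was seen. The 20 cytosolic aminoacyl-tRNA synthetases, which charge tRNAs, changed less. Their median of 0.53 compared with 0.05 in the 1 h library, with 15 counting intervals above 0, none below, and 3 rises, Aars at 1.07 [1.01, 1.15], Yars at 1.05 and Tars at 1.01. None of the 20 changed 2-fold at 2 h in PERK -/- MEFs, where 0.623% of all genes rose and 5.78% fell. None did so in NIH3T3 cells, where 5.08% rose and 3.96% fell.

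**Figure D3:**
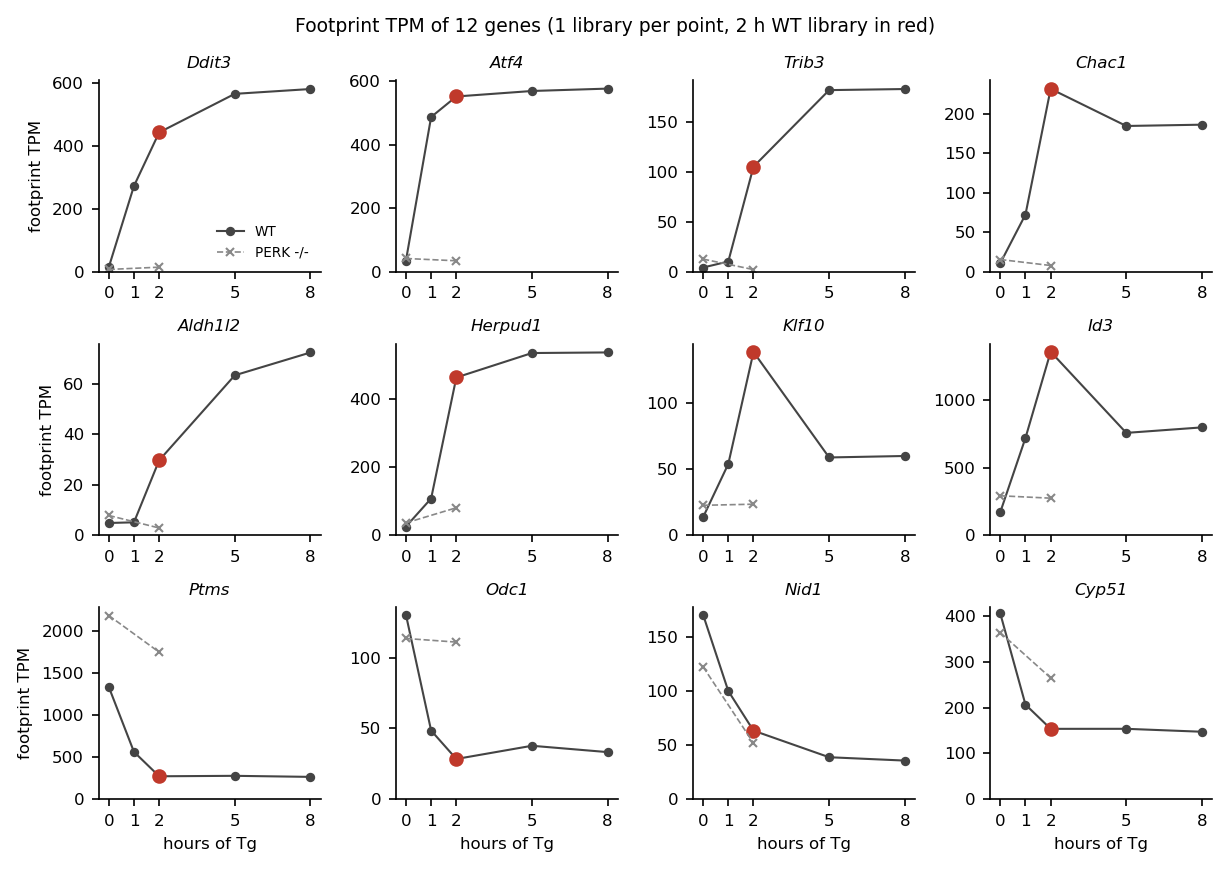
Footprint TPM (y, linear and starting at 0) against hours of Tg (x) for 12 genes in WT MEFs (solid line, 2 h in red) and PERK -/- MEFs at 0 and 2 h (dashed line), 1 library per point. Atf4 is near its plateau at 1 h, Aldh1l2 leaves its control level only after 1 h, and Klf10 and Id3 are highest at 2 h.

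The ER folding machinery was divided at 2 h. Hspa5 had 1357, 2624, 4462 and 7253 TPM in the libraries of 0, 1, 2 and 5 h, a 3.29-fold rise at 2 h with 23028 counts behind it. Without PERK it went from 1646 to 2515 TPM. Its cofactors Sdf2l1 (from 23.9 to 134 TPM) and Dnajb9 (1.48 [1.09, 1.87]) also rose, whereas Dnajc10, a disulfide reductase, fell by 1.24 on the log2 scale and the lectin chaperone Canx, named after its value was seen, by 1.03. Over the 21 ER chaperones and oxidoreductases there were 3 rises and 2 falls, beside 5.66% and 4.01% of all genes. Counting intervals lay above 0 for 10 and below 0 for 9, and the median was −0.02 at 2 h and 0.70 at 5 h.

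In ER-associated degradation 2 of 17 genes rose and 1 fell, beside 5.66% and 4.01% of all genes. Herpud1 had 25.6, 108, 462 and 534 TPM at 0, 1, 2 and 5 h (4.17, counting interval 3.92 to 4.24), and 36.5 and 80.8 TPM untreated and at 2 h in PERK -/- MEFs. Syvn1 had 26.6, 55.9, 101 and 152 TPM. Edem3, a mannosidase, was the one that fell, from 18.6 to 9.26 TPM, with a counting interval of −1.38 to −0.64. Among the 10 sensors and factors of the response Xbp1 rose from 29.2 TPM to 83.5 at 1 h and 190 at 2 h, where it was highest of the 5 libraries, and also rose in PERK -/- MEFs, from 34.5 to 76.7 TPM. The counts do not separate the spliced and unspliced forms of Xbp1. Creb3, a membrane-bound transcription factor, rose by 1.13 [0.91, 1.35]. Eif2ak3 changed by 0.04 [−0.64, 0.29].

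Among the immediate-early and early-response genes some were still rising at 2 h and some were past their 1 h level. Of 28 analysed 14 rose at 2 h and none fell (median 0.99), and 14 had risen at 1 h (median 1.04), where 4.33% of all genes rose and 2.29% fell. Klf10, a TGF-beta-induced factor, went on rising, from 13.7 TPM to 54.1 at 1 h and 139 at 2 h, and was at 59.0 at 5 h. Egr1, a zinc-finger factor of early growth responses, had 29.9, 171 and 39.5 TPM at 0, 1 and 2 h, a fall of 2.12 on the log2 scale from 1 to 2 h, and Ier3 had 89.2, 461 and 195 TPM. Egr1 and Ier3 are named after their values were seen. At 2 h in PERK -/- MEFs 1 of the 28 rose and 9 fell, beside 0.623% and 5.78% of all genes. In NIH3T3 cells 16 of 27 rose and none fell, beside 5.08% of all genes up and 3.96% down in those cells.

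The inhibitors of basic helix-loop-helix factors rose with them. Id3 had 171, 721, 1360, 759 and 800 TPM over the 5 WT libraries (2.99 [2.85, 3.14] at 2 h), Id1 had 38.7, 135, 164, 60.6 and 69.9, and Id2 had 41.9, 81.1, 156, 79.4 and 92.5. Each was highest at 2 h. Smad7, an inhibitor of TGF-beta signalling, rose by 1.67. The list of 14 ID and SMAD feedback genes had 7 rises and 2 falls, beside 5.66% and 4.01% of all genes. In PERK -/- MEFs, where 0.623% of all genes rose and 5.78% fell, none of the 14 changed 2-fold. Id3 had 293 TPM there untreated and 276 at 2 h. In NIH3T3 cells Id3 went from 505 to 3108 TPM.

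At 2 h, the shallowest library, some genes lay outside the range of the other 4 WT libraries. A search made after the values were seen found 62 genes with at least 30 counts in the control whose floored TPM at 2 h was below every other WT library by 0.6 or more on the log2 scale. Their median count at 2 h was 11, and 3 of them had 30 counts or more there, so they are not named. In the other direction it found 35 genes with at least 30 counts at 2 h whose floored TPM there exceeded every other WT library by as much. Klf10 and Hes1, a Notch target, exceeded the next library by 1.21 and 1.20. Snai1, a repressor of epithelial genes, had 55.7, 88.3, 179, 87.1 and 92.5 TPM. Id2, Id3, Gadd45b and Gadd45g were also among them, as was Skil, a repressor of SMAD signalling. The list also holds Eif3j2, at 0 counts in 3 of the 4 other WT libraries and 123 at 2 h. It is a near-identical copy of Eif3j1, which went from 3395 to 230 counts. Reads can be divided between such copies in different ways in each library, and their sum went from 3395 to 353 counts (−1.02 [−1.19, −0.86]).

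Among the other lists, core histones had 45 rises and 1 fall in 58 genes. Their median of 1.30 compared with 1.11 in the 1 h library. Their share of all footprints went from 1.46% (1.46 to 1.47) to 3.79% (3.76 to 3.81). The 58 symbols held 51 distinct rows of counts, and Hist1h2ag, Hist1h2ao and Hist1h2ap had identical values (276 counts in the control, 594 at 2 h), so single copies are uncertain. The one fall, Hist1h3h from 1005 counts to 0, is of this kind. The genes of linker histones Hist1h1a and Hist1h1d rose by 1.31 and 1.07. In PERK -/- MEFs the core histone median was −0.15. The median coding GC content of core histones was 66.0%, against 52.8% for all genes. Of 14 cyclins 2 fell and none rose, beside 4.01% and 5.66% of all genes, and the list median was −0.01. Counting intervals lay above 0 for 4 cyclins and below 0 for 6. Cyclin E2 (Ccne2) fell by 1.06 [−1.41, −0.73], and Ccnd1 and Ccna2 changed by −0.92 and −0.80. The part of the cell cycle in these values was not tested.

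**Figure D4:**
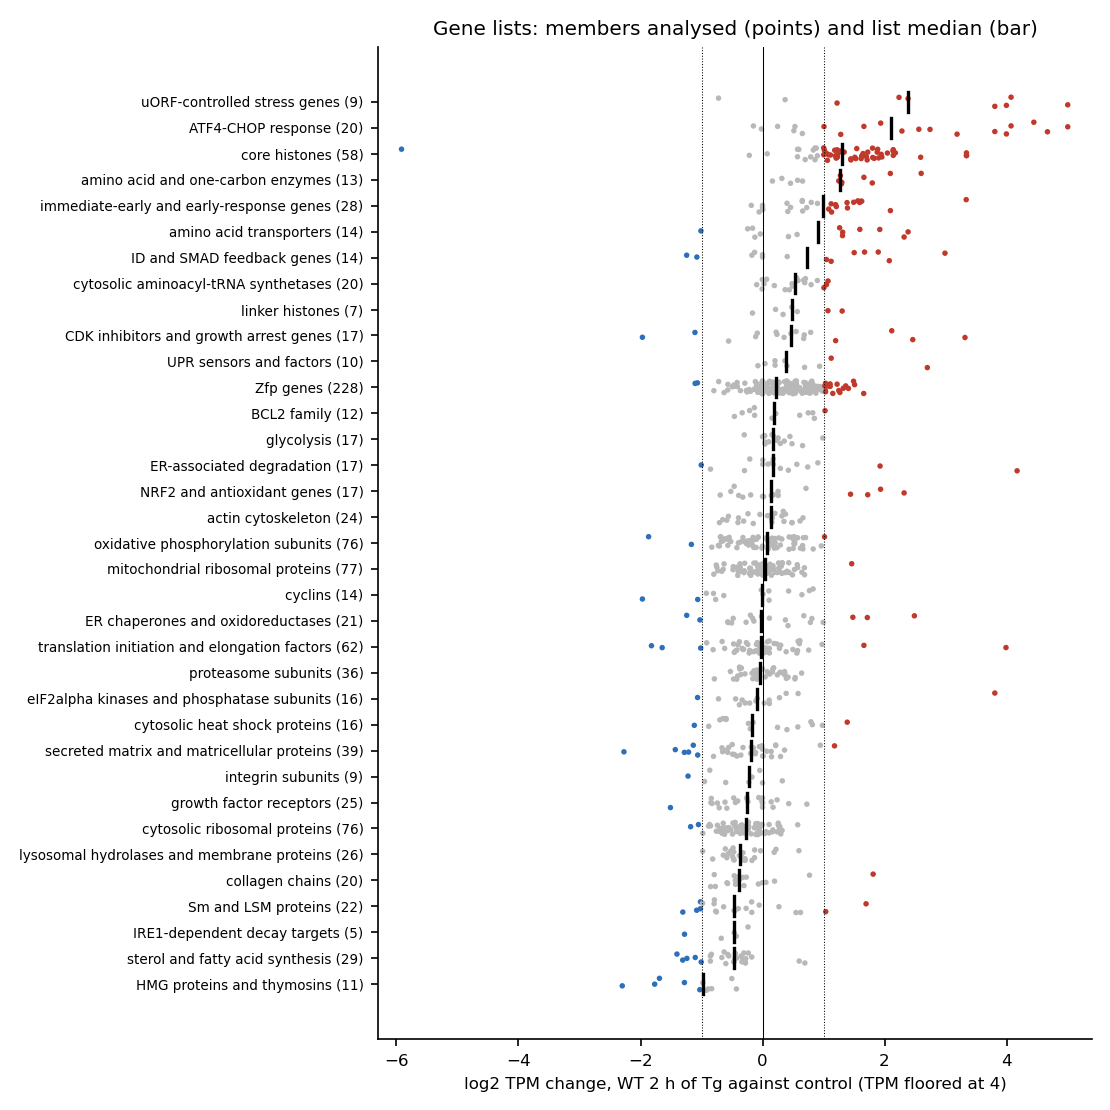
Log2 TPM change at 2 h of Tg in WT MEFs (x) for the analysed members (points) of 35 gene lists (rows, number analysed in parentheses), in red or blue where at least 2-fold. Black bars are list medians, which run from 2.39 for genes controlled by upstream reading frames to −0.98 for the HMG proteins and thymosins.

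The largest fall among genes with at least 30 counts in both libraries was that of Ptms, parathymosin, a small acidic nuclear protein. It had 1335, 562, 271, 277 and 264 TPM in the 5 WT libraries in order of time (−2.30 [−2.53, −2.07]), and 2184 and 1748 TPM untreated and at 2 h in PERK -/- MEFs. Odc1, the first enzyme of polyamine synthesis, had 130, 48.5, 28.4, 37.7 and 33.2 TPM, and 114 and 111 in PERK -/- MEFs. Anp32b, a histone chaperone, had 1512, 540 and 413 TPM at 0, 1 and 2 h. Uqcrh, a subunit of respiratory complex III, had 1129, 695 and 309 TPM, with most of its fall in the second hour (2 h over 1 h, −1.17 [−1.45, −0.91]).

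All 11 HMG proteins and thymosins had counting intervals below 0 at 2 h, 5 of them fell, and the median was −0.98 (−0.55 at 1 h). Hmga2, a chromatin protein of embryonic cells, had 712, 232 and 209 TPM and Ptma, prothymosin alpha, 7263, 3991 and 2991. None of the 11 changed 2-fold in PERK -/- MEFs, where 0.623% of all genes rose and 5.78% fell. Their median there was −0.01. Of 76 cytosolic ribosomal proteins 2 fell (2.63%, beside 4.01% of all genes), Rpl24 by 1.18 and Rps20 by 1.05. None rose, and 48 had intervals below 0 and 14 above. Their median was −0.27 in WT and 0.30 in PERK -/- MEFs, and their share of footprints went from 6.78% (6.77 to 6.79) to 5.72% (5.69 to 5.75). Among 22 Sm and LSM proteins of the splicing machinery 4 fell and 2 rose, with a median of −0.46.

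Sterol and fatty acid synthesis had 5 falls and no rise in 29 genes, beside 4.01% and 5.66% of all genes, and 27 intervals below 0. Cyp51, lanosterol demethylase, had 407, 207 and 154 TPM at 0, 1 and 2 h (−1.40 [−1.52, −1.28]). Sc5d and Dhcr7, which act later in cholesterol synthesis, fell by 1.31 and 1.10. The list median was −0.47 at 2 h, compared with −0.30 at 1 h and, in PERK -/- MEFs, with −0.67 after 2 h.

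Lists of secreted, lysosomal and cell surface proteins are given beside PERK -/- MEFs, and the differences between genotypes were not tested. Of all genes 4.01% fell and 5.66% rose at 2 h in WT, and 5.78% fell and 0.623% rose in PERK -/- MEFs. Of 39 secreted matrix proteins 6 fell and 1, Ctgf, a matricellular growth regulator, rose, with a median of −0.18, while 14 fell in PERK -/- MEFs with a median of −0.76. Angptl2, a secreted angiopoietin-like protein, had 63.1, 25.5 and 13.1 TPM at 0, 1 and 2 h in WT (−2.27 [−2.70, −1.86]) and 82.1 and 20.6 TPM untreated and at 2 h in PERK -/- MEFs. Nid1, a basement membrane linker, had 170, 99.8, 63.2, 38.6 and 35.5 TPM in the WT libraries. Of 20 collagen chains none fell and 1, Col26a1, rose in WT (median −0.38), and 14 fell in PERK -/- MEFs (median −1.27). The 26 lysosomal proteins had no rise or fall but 19 intervals below 0 and a median of −0.37, with Lamp1 at 820, 399 and 415 TPM. Of 25 growth factor receptors 1 fell, near the share of all genes. This was Met, the receptor of hepatocyte growth factor, which went from 24.1 TPM to 8.82 at 1 h and 8.45 at 2 h. Itga6 was the one of 9 integrin subunits that fell, and Itgb1 changed by −0.95 [−0.99, −0.90].

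The sequence that such proteins carry was read from the first 90 coding bases. Shown are 3 of the named genes that fell, with the 24 bases that code the most hydrophobic run of 8 residues in capitals. Ryk encodes a receptor of Wnt ligands. The coding sequences are those of GENCODE on GRCm38.
Nid1, chr13:13437702-13437791, plus strand: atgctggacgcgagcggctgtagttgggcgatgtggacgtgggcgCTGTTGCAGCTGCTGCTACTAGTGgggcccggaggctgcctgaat
Met, chr6:17491241-17491330, plus strand: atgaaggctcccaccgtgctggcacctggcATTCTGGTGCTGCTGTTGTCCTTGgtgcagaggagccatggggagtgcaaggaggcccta
Ryk, chr9:102835056-102835145, plus strand: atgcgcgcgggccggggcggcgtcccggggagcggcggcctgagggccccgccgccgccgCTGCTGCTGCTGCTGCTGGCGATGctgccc

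A hydrophobic N terminus, meaning that some run of 8 among the first 30 residues averaged 2.2 or more on the Kyte-Doolittle scale, is a feature of signal peptides and of some membrane anchors. It was present in 16.8% of the 10239 genes with a coding sequence, 26.6% of those that fell at 2 h in WT and 13.8% of those that rose. Among the genes that fell at 2 h the share was 39.6% in PERK -/- MEFs and 30.2% in NIH3T3 cells, where 15.3% of all genes had it. The median log2 change of these genes at 2 h was −0.08 in WT (order-statistic interval −0.11 to −0.04), −0.39 in PERK -/- MEFs and −0.35 in NIH3T3 cells. For genes with neither this feature nor a membrane window of 19 residues the medians were 0.03, −0.03 and −0.13. These medians differed with coding GC content, as given next for the MEFs. The 3 comparisons have separate controls and unequal depth, and their differences were not tested.

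Coding GC content moved with the change in WT MEFs. With genes split by GC content into 5 bins of equal size, in the lowest bin (up to 47.0%) 1.32% rose and 7.67% fell at 2 h, with a median of −0.20, and in the highest bin (from 58.1%) 14.0% rose and 1.66% fell, with a median of 0.27. The PERK -/- MEFs had the opposite order, from 0.13 in the lowest to −0.44 in the highest bin. For genes with a hydrophobic N terminus the WT median at 2 h was −0.20 below the median GC content and 0.00 above it, beside −0.07 and 0.24 for genes with neither feature. In PERK -/- MEFs the medians of these genes were −0.19 and −0.58, beside 0.07 and −0.24. Below the median GC content the medians of genes with a hydrophobic N terminus were thus close in the 2 genotypes. The shares that fell were not, at 9.90% in WT and 4.56% in PERK -/- MEFs. Of all genes below the median GC content 5.88% and 1.97% fell. These differences between genotypes were not tested. The genes that fell were also short, with a median of 343 residues against 450 for all genes, and so were those that rose, with 340.5. The part of GC content and length in the changes was not tested.

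**Figure D5:**
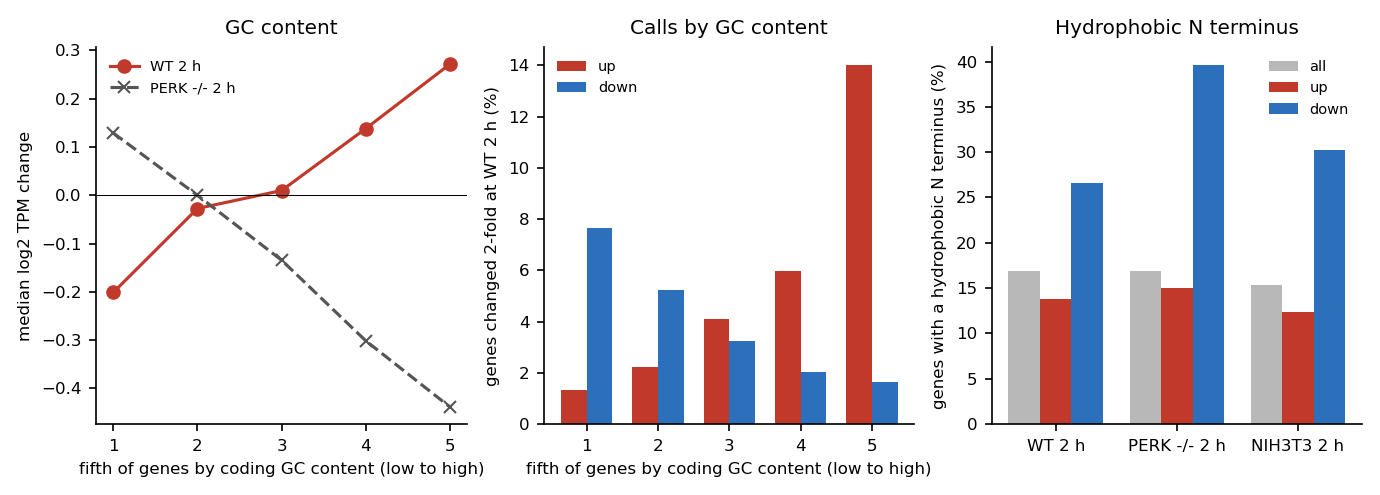
Left, median log2 TPM change at 2 h by bin of coding GC content (5 bins of equal size) in WT and PERK -/- MEFs; middle, percent of genes that rose or fell at least 2-fold at 2 h in WT in each bin; right, percent of all, rising and falling genes with a hydrophobic N terminus in 3 comparisons. The WT median climbs from −0.20 to 0.27 with GC content, and 26.6% of the genes that fell in WT had a hydrophobic N terminus.

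The 590 genes that rose at 2 h had a median change of 0.88 at 1 h, where 244 had already risen (4.33% of all genes rose there), and 120 of them were at least 2-fold above their own 1 h value. At 5 h 39 were at least 2-fold below and 10 at least 2-fold above the 2 h value, beside 0.776% and 1.03% of all genes. The 418 genes that fell had a median of −0.78 at 1 h, where 123 had fallen (2.29% of all genes fell there), and at 5 h 33 were at least 2-fold above the 2 h value and 1 below. The 1 h, 2 h and 5 h changes share the WT control, and genes picked at 2 h carry its counting error.

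Against their own control, PERK -/- MEFs had 17 of the 590 genes up and 59 down at 2 h (0.623% and 5.78% of all genes), with a median of −0.24 beside −0.11 for all genes. Rcan1, an inhibitor of calcineurin, was one of those that rose in both, from 22.6 to 168 TPM in WT and from 31.1 to 169 in PERK -/- MEFs, and its changes differed by 0.39 on the log2 scale with an interval of −0.01 to 0.79. In NIH3T3 cells 123 of the 543 genes analysed there rose at 2 h and 11 fell (5.08% and 3.96% of all genes), with a median of 0.32 beside −0.17. Of the 418 genes that fell in WT 41 fell and 4 rose in PERK -/- MEFs, beside 5.78% and 0.623% of all genes. In NIH3T3 cells 67 of 383 fell and 7 rose, beside 3.96% and 5.08%.

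Several lists stayed near 0 at 2 h. None of 36 proteasome subunits, 24 actin cytoskeleton genes or 17 glycolysis genes changed 2-fold, and their medians were −0.04, 0.14 and 0.18. Of 77 mitochondrial ribosomal proteins 1 rose, Mrpl27, and of 76 subunits of oxidative phosphorylation 1 rose and 2 fell. The 17 genes of the NRF2 and antioxidant list had a median of 0.14 but 4 rises (23.5%, beside 5.66% of all genes), in Slc7a11, Srxn1, Hmox1 and Sqstm1. Hmox1, haem oxygenase, went from 83.5 TPM to 139 at 1 h and 276 at 2 h, and Sqstm1, a selective autophagy receptor, from 209 to 315 and 567. Of 12 BCL2 family genes 1 rose, and Mcl1 changed by 0.15 [−0.05, 0.34].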

How the data were processed

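Ribosome footprints of 13 libraries, 1 per condition, were used as deposited. The authors trimmed the polyA tail, removed rRNA and tRNA reads with STAR, aligned the rest with Bowtie2 to clipped RefSeq coding sequences of mm10 and ran RSEM. Versions are not given in the sources used here. The expected counts deposited by the authors are whole numbers per gene, not scaled between libraries. The TPM values deposited by the authors are scaled within each library over the clipped coding sequences, so a value is a share and says nothing of total translation.

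The analysis kept genes averaging 2 TPM or more across the 10 MEF columns. Just inside this limit lay Zfp873 (mean TPM 2.00, 65 counts in the control and 9 at 2 h) and just outside Nudt16 (2 and 4 counts). NIH3T3 values further required an average of 2 TPM in the 3 libraries of those cells. TPM was floored at 4 and changes of at least 2-fold were called. With 1 library per condition no test was made. Intervals are exact conditional 95% intervals of 2 expected counts per library total, normal intervals on the log2 scale, with 0.5 added to each count, for a difference of 2 changes, and Wilson intervals for shares. The interval code was tested on simulated data.

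The named genes were the 15 largest rises and 15 largest falls with at least 30 counts in both WT libraries (histones, date-like and unnamed symbols left out), the 4 largest changes of each of 35 gene lists under the same minimum, and Atf4, Ddit3, Ppp1r15a, Hspa5, Xbp1 and Eif2ak3. Named outside this rule, after their values were seen, were Arid5a, Nupr1, Smim10l1, Eprs, Canx, Slc1a5, Egr1, Ier3, Hes1, Snai1, Skil, Ctgf, Eif3j2 and Hist1h3h, beside the cell type markers. The members, lists and tests were chosen with earlier results of these data known. Promoters were matched for 8387 genes (RefSeq, GRCm38.p6) and coding sequences for 10239 (GENCODE M21). Alternatives used edgeR 4.0.16 and DESeq2 1.42.0 only for scaling factors on the expected counts, with R 4.3.3, Python 3.11.15, pandas 2.3.3 and scipy 1.17.1. One named gene is not reported here.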

Additional observations from a re-analysis of the deposited data

Results flagged for a closer look

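Several named genes changed at least 2-fold at 2 h in opposite directions in WT and PERK -/- MEFs, with both counting intervals off 0. The value given is the difference of the log2 changes of counts, WT minus PERK -/-, with its counting interval. With 1 library per condition the difference between genotypes was not tested against replicate error. By the 2-fold limit alone, 59 of all 10432 genes analysed rose in WT and fell in PERK -/- MEFs, and 4 did the reverse. Named genes were mostly picked by the size of their WT change at 2 h, which enters the difference and can enlarge it. The difference was 7.18 (6.47 to 7.88) for Trib3, 5.17 (4.45 to 5.88) for Gadd45a, 4.85 (4.26 to 5.45) for Sesn2, 3.62 (3.22 to 4.02) for Slc6a9, 3.32 (2.77 to 3.86) for the early-response gene Ier2 and 2.60 (2.24 to 2.95) for Uqcr11, a subunit of respiratory complex III. It was 4.34 (4.11 to 4.56) for each of Hist1h2ag, Hist1h2ao and Hist1h2ap, which have identical counts and stand for 1 measurement.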

How the results depend on the processing

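No paired analysis was possible because each condition is 1 library, and for the same reason no replicate could be left out. A floor of 1 TPM in place of 4 gave 887 genes up and 580 down, and a 3-fold limit 149 up and 66 down, by construction of a lower floor and a stricter limit. The other alternatives (a pseudocount, another filter, TMM or DESeq2 factors, counts per library total, thinned control counts) gave 521 to 673 genes up and 386 to 502 down. TMM factors gave 521 up and 502 down, and DESeq2 factors 532 and 493. The excess of rises over falls thus depended on the scaling. Removing the trend with coding GC content, added after seeing the data, gave 405 up and 375 down, of which 368 and 314 were among the 590 and 418. No list median whose order-statistic interval lay off 0 and no named gene that changed 2-fold reversed its direction under any of these. With the GC trend removed, 46 of 152 named genes moved by more than their counting error and the core histone median was 0.83. At this depth 92 of 418 falls and 235 of 590 rises had counting intervals wholly beyond 2-fold.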
